A study of Mus musculus with 6 samples.

Results

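Fatty acid oxidation and ketogenesis genes were followed in mouse liver as a module of 34 genes, taken from the count table by a list of symbols. All 34 were among the 55487 genes counted, and all 34 were among the 14046 genes whose counts were high enough to be tested. The list holds 1 transcriptional regulator, 3 genes of fatty acid uptake and activation, 5 of the carnitine shuttle, 5 acyl-CoA dehydrogenases, 5 enzymes of the later steps of the mitochondrial spiral, 4 auxiliary enzymes for unsaturated chains, 3 genes of electron transfer, 6 of peroxisomal oxidation and 2 of ketone bodies.

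Liver RNA came from 6 male wild-type C57BL/6J mice on a normal chow diet, whose livers were taken at 17 weeks of age, with 1 library per mouse. GalNAc-siRnf10 is an siRNA against Rnf10 joined to N-acetylgalactosamine, a sugar that hepatocytes take up through the asialoglycoprotein receptor; 3 mice received it under the skin. The other 3 mice received GalNAc-siNC, a control siRNA on the same ligand. Neither the dose nor the injection times of these 6 mice are given in the sources used here, and all 6 carry the same batch label.

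Fatty acids that enter a hepatocyte are joined to coenzyme A and then, as carnitine esters, cross into mitochondria, where repeated rounds of dehydrogenation, hydration, a further dehydrogenation and thiolysis release acetyl-CoA. Very long and branched chains are first shortened in peroxisomes. Liver turns much of the acetyl-CoA into ketone bodies for other organs during fasting, and the nuclear receptor PPAR-alpha, encoded by Ppara, is the main transcriptional activator of these genes there. RNF10 is a RING-type E3 ubiquitin ligase, and the study asked how it acts on CPT1A, the protein that commits fatty acids to mitochondrial oxidation; the counts here speak only of the mRNA.

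Depth was even, at 26854377 to 33058645 counts per library, so that 3 counts, taken as the floor of detection, made up at most 1.12e-05% of a library (counting error only). The targeted gene checked the labels. Rnf10 had normalised counts of 3865, 4532 and 4037 in the GalNAc-siNC mice and 1737, 1819 and 1792 in the GalNAc-siRnf10 mice. A normalised count is the count divided by a size factor for the library (edgeR, trimmed mean of M-values). The log2 fold change of Rnf10 was -1.22 ± 0.07 (SE, adjusted p = 3.29e-09, edgeR quasi-likelihood test with Benjamini-Hochberg adjustment), a difference of -57.0%.

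GalNAc-siNC mouse 1 stood apart from the other 2 control mice. The chi-square per gene between it and each of them was 27.8 and 27.1, against 9.53 between the other 2 and 4.45 to 5.07 between pairs of GalNAc-siRnf10 mice. Its counts, relative to the other 2 controls, were higher by a median log2 value of 0.11 in the third of tested genes with the lowest GC content. They were lower in the third with the highest, where the median was -0.17. GalNAc-siNC mouse 2 went the other way, with medians of -0.12 and 0.15, and mouse 3 had 0.01 and -0.006. Among the 34 genes GalNAc-siNC mouse 1 was the lowest control for 14 and the highest for 15, together 29. Mouse 2 was the lowest for 8 and the highest for 12, and mouse 3 for 12 and 7. Values without mouse 1 are given beside several of the genes.

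Markers of hepatocytes defined the tissue, with a summed level of 62822 to 67484 TPM (counts per length, scaled to the same sum in each mouse) over 7 markers in the controls and 87086 to 88540 TPM in the treated mice; 4 of the 7 were called, all higher, namely Alb, Ttr, Tat and Cps1. Of the other lists, 0 of 7 Kupffer cell markers were called (219.8 to 263 TPM in controls, 223 to 240.2 in treated mice). Of 6 sinusoidal endothelial markers, Clec4g and Lyve1 were called higher (31.4 to 32.4 and 34.7 to 36.6 TPM), and of 7 stellate cell markers Dcn, Colec11 and Reln were called higher (47.6 to 54.3 and 53.4 to 57.3 TPM). The log2 fold change was above 0 for 5 of the 6 endothelial markers, and the lowest was -0.26. For the stellate list it was above 0 in 4 of the 7, with a median of 0.03 and a lowest value of -0.27. Of 2 tested neutrophil markers S100a9 was lower (6.402 to 11.03 and 3.63 to 3.93 TPM), of 2 tested exocrine pancreas markers Cela1 was higher (18.2 to 24.9 and 29.8 to 32.2 TPM, with Cpa1 at 0), and 0 of 2 tested lymphocyte markers were called (2.18 to 2.45 and 1.62 to 2.98 TPM). Of 5 cholangiocyte markers, Spp1 was lower, and their summed level was 96.3 to 103 TPM in controls and 50.02 to 50.3 TPM in treated mice. Adipocyte markers summed to at most 0.20 TPM in any mouse, with Adipoq, Plin1, Lep and Ucp1 at 0 throughout, and striated muscle markers, among them the muscle isoform Cpt1b, to at most 0.20 TPM. Of all tested genes, 14.0% were called (adjusted p under 0.05). The part of these marker shifts in the results was not tested. In bulk liver, fewer cells of a type and less RNA per cell cannot be told apart.

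Most of the module did not pass the test. Of the 34 genes, 3 were called at an adjusted p under 0.05 (8.82%), against 14.0% of all tested genes. Etfa and Pex11a were higher with GalNAc-siRnf10 and Crat was lower; over all tested genes 6.71% were called higher and 7.28% lower. The 3 calls were the same genes at thresholds of 0.01 and 0.1. The median log2 fold change over the 34 genes was 0.04, beside 0.00 over all tested genes, and the median size of the change without its sign was 0.08, beside 0.18.

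The module was well counted, and its intervals were narrow. A mean normalised count of at least 1000 was reached by 32 of the 34 genes; 2 of these 32 were called, against 25.7% of all tested genes above that mark, which was chosen after the values were seen. The 95% confidence interval of the difference lay between 0.8-fold and 1.25-fold for 27 of the 31 genes that were not called. The exceptions were Slc25a20, Etfb, Acaa1a and Acaa1b. Between mice of a group, the median coefficient of variation over the 34 genes was 5.50% in controls and 2.02% in treated mice. All 34 genes together took 1.02% to 1.04% of the counts in the control mice and 1.02% to 1.03% in the treated mice.

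**Figure D1:**
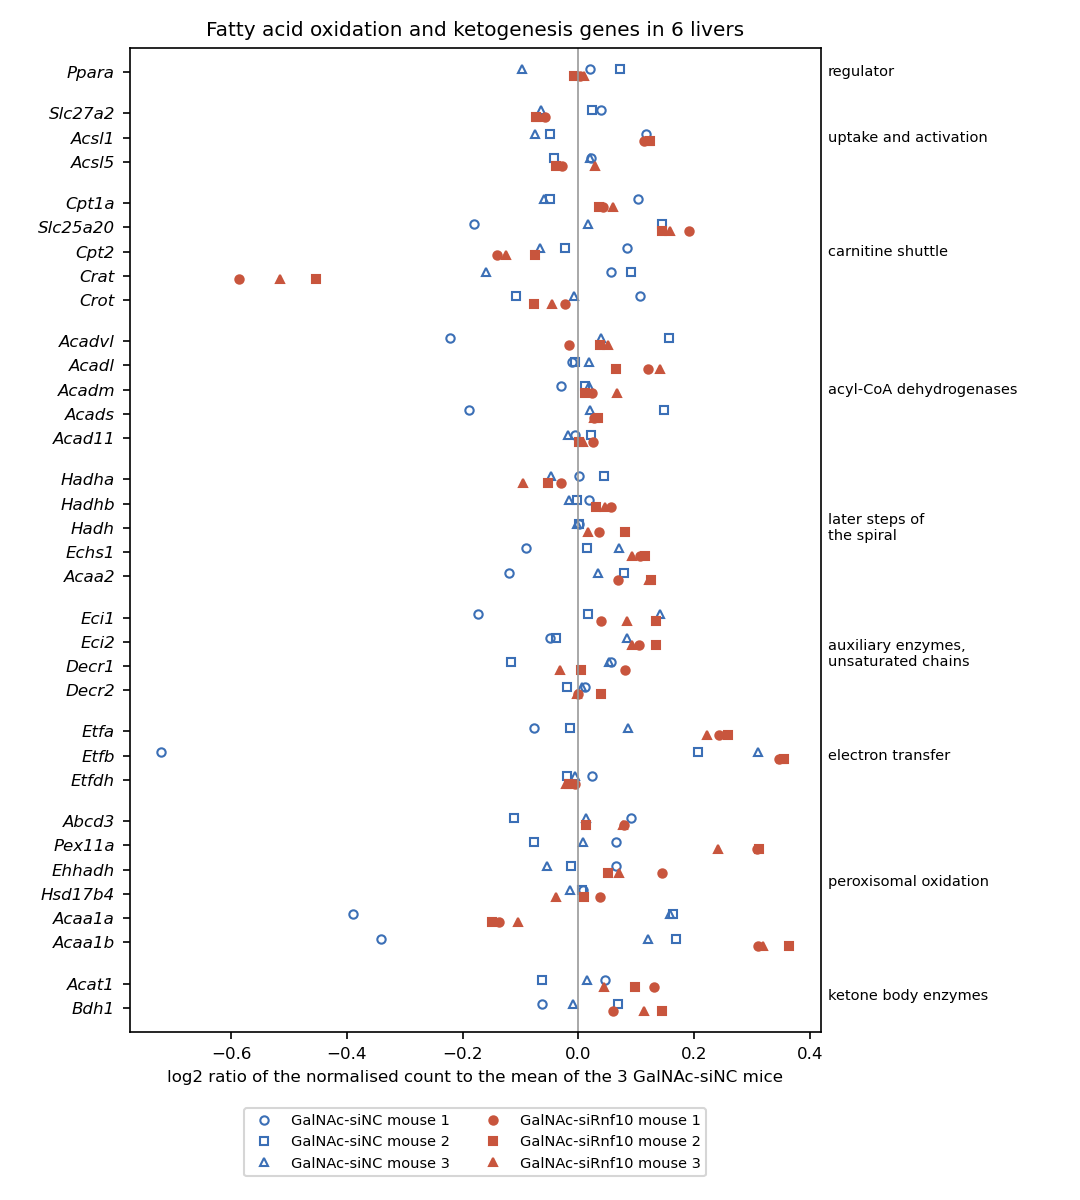
Normalised count of each of the 34 genes in each liver, as the log2 ratio to the mean of the 3 GalNAc-siNC mice (x axis), grouped by role; open blue symbols are GalNAc-siNC mice and filled red symbols GalNAc-siRnf10 mice, 1 symbol per mouse. The treated mice lie close together; GalNAc-siNC mouse 1 (open circles) lies farthest out for Etfb, Acaa1a and Acaa1b, and only Crat shows all treated mice more than 0.4 below the control mean.

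The groups did not overlap for 11 of the 34 genes (32.4%), against 32.8% of all tested genes. In 9 of the 11 (Acadl, Hadhb, Hadh, Echs1, Eci2, Etfa, Etfb, Pex11a and Acaa1b) each treated mouse was above each control, and in 2 (Crat and Cpt2) each was below. An exact permutation test of 3 mice against 3 cannot give a p below 0.1, which is the value for these 11 genes. Small differences depended on the scale. On the normalised scale 26 of the 34 log2 fold changes were above 0 and 8 below, but 24 of the 34 had a lower mean TPM in the treated mice. The median of all tested genes was itself at -0.11 on the log2 TPM scale, and that of the 34 genes at -0.06, or 0.04 above it. Alb alone took 3.72% to 4.36% of the counts in controls and 5.93% to 6.08% in treated mice.

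Levels per length spanned a wide range. The length is the one deposited for each gene, and the order between genes depends on it. For Acsl1 it was 10483 bases, beside 5676 for the longest transcript, and for Acaa2 both were 1516. Mean TPM over the 6 mice ran from 10.3 for Crat to 1282 for Acaa2, a mitochondrial thiolase, with a median of 134. Slc27a2, an acyl-CoA synthetase and transporter of very long chains, was next at 983 TPM, followed by Acaa1b, a peroxisomal thiolase, at 470 and Etfa at 377. Cpt1a was at 154 TPM and Cpt2 at 146, and the dehydrogenases Acadl, Acadvl, Acads and Acadm lay between 158 and 187 TPM. At the low end were Pex11a at 48.3, Etfb at 22.5 and Crat at 10.3 TPM. The level of Etfb is uncertain, since 53.0% of its exon bases are shared, on the same strand, with the annotated gene Gm45233. Many neighbours in this order overlapped between mice, as Cpt1a (145 to 176 TPM) did with Acadm (151 to 166 TPM).

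**Figure D2:**
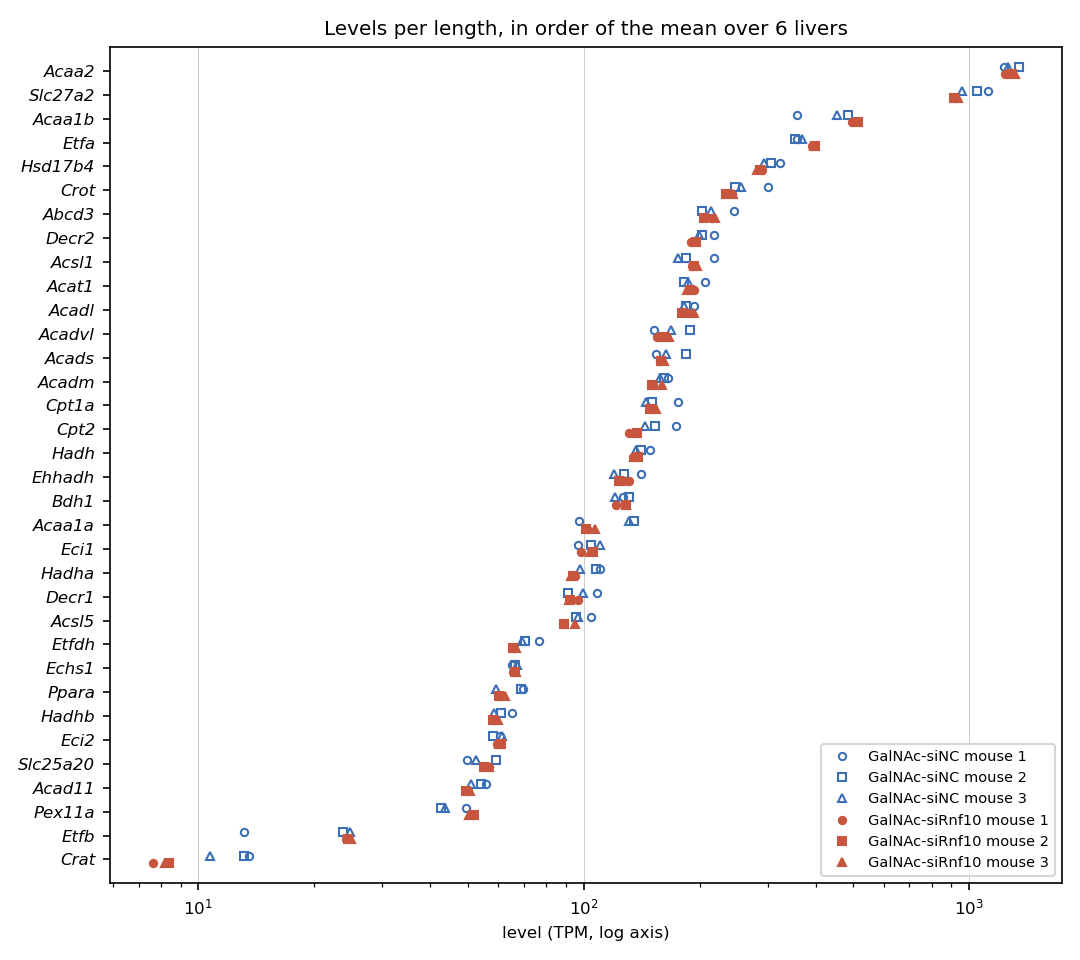
Level of each of the 34 genes in each liver in TPM (x axis, log scale), in order of the mean over the 6 mice; symbols are single mice as named in the key. The order runs from Acaa2 at 1282 TPM to Crat at 10.3 TPM, and the spread between mice is small beside the range between genes.

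The promoters were read for the half-site AGGTCA, the 6 letters that PPAR-alpha with its partner RXR is known to bind as a spaced pair. RefSeq (GRCm38.p6) promoter sequences, 250 bases before to 50 after the start, were matched for 29 of the 34 genes, of which 3 have more than 1 start site (32 sequences). Both strands were searched for each motif. A gene of the 29 was counted if any of its promoters matched, while the share of all is per promoter, so the units of these shares differ. AGGTCA was found in 5 of these 29 (17.2%), against 16.3% of all 32851 promoters. The spaced pair AGGNCANAGGNCA was found in 0 of the 29 and in 0.381% of all promoters. The related half-site GGGTCA was found in 6 of the 29 and in 13.7% of all, and CACGTG, the E-box that clock factors bind, in 0 of the 29 and in 7.15% of all. The 5 matches are shown because they are the places in these windows where the letters of the receptor's half-site occur, among them the gate enzyme Cpt1a; each is 30 bases on the gene's strand, with the half-site, or TGACCT where it lies on the other strand, in capitals.
Slc27a2, chr2:126552792-126552821, plus strand, half-site beginning 220 bases before the start: gcaccacgccttTGACCTtttcaacgtggg
Cpt1a, chr19:3323195-3323224, plus strand, half-site 94 bases before: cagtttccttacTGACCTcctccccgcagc
Acadvl, chr11:70015498-70015527, minus strand, half-site 87 bases before: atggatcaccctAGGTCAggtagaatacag
Acadm, chr3:153944864-153944893, minus strand, half-site 249 bases before: gTGACCTtcgggctccggtgacactgggca
Echs1, chr7:140116487-140116516, minus strand, half-site 83 bases before: accagcccgctcAGGTCAcgggtccacccc
A match of letters is a description and not a binding site, and none of the 5 genes was called.

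Ppara itself had normalised counts of 3048, 3158 and 2811 in the control mice and 3012, 2990 and 3026 in the treated mice. The treated values all lay inside the range of the controls. Its log2 fold change was 0.00 ± 0.07 (SE, adjusted p = 0.99), and the 95% interval of the difference ran from -9.03% to 10.2%.

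Uptake and activation was covered by Slc27a2 and the long-chain acyl-CoA synthetases Acsl1 and Acsl5, and 0 of the 3 were called. Acsl1, the main synthetase of liver, had 25936, 23131 and 22719.7 normalised counts in controls and 25873, 26082 and 26019.6 in treated mice. GalNAc-siNC mouse 1 lay with the treated mice and the other 2 controls below them. Over all 6 mice its log2 fold change was 0.12 ± 0.06 (SE, adjusted p = 0.19); without GalNAc-siNC mouse 1 it was 0.18 ± 0.04 (SE, adjusted p = 0.00092), past the threshold. Slc27a2 differed by -4.50% (95% interval -11.2% to 2.74%) and Acsl5 by -0.86% (-8.85% to 7.82%). The exons of Acsl5 overlap those of Zdhhc6 on the other strand over 8.31% of their length, and whether counting used the strand is not given in the sources used here.

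Cpt1a makes the outer-membrane carnitine palmitoyltransferase that malonyl-CoA inhibits. Its gene lies on chromosome 19 from 3322334 to 3385733 (GRCm38). Normalised counts were 15323, 13780.1 and 13688 in the control mice and 14687, 14620.2 and 14865 in the treated mice. The treated mice lay between the highest control, mouse 1, and the other 2. The log2 fold change was 0.05 ± 0.06 (SE, adjusted p = 0.66), and the 95% interval of the difference ran from -5.03% to 12.2%, while that of Rnf10 in the same livers was -57.0%. Without GalNAc-siNC mouse 1 the log2 fold change of Cpt1a was 0.10, with an adjusted p of 0.10.

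Crat was the 1 gene of the 34 called lower over all 6 mice. It encodes carnitine acetyltransferase, which moves acetyl and other short acyl groups between coenzyme A and carnitine, and lies on chromosome 2 from 30400471 to 30415813. The control mice had 829.7, 850.1 and 714.7 normalised counts and the treated mice 531.9, 582.7 and 558.6. The highest treated mouse lay below the lowest control. The log2 fold change was -0.52 ± 0.09 (SE, adjusted p = 0.0011), a difference of -30.1% with a 95% interval from -39.0% to -19.8%, and -0.49 without GalNAc-siNC mouse 1. Crat was the only one of the 34 genes called under every one of the 16 alternative settings, its log2 fold change between -0.59 and -0.42. Its exons share 59 bases with those of Dolpp1 on the other strand. They also share 411 bases (7.63% of their length) with Gm16323, again on the other strand, which had 0 counts.

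The other 3 genes of the shuttle did not pass. Slc25a20, the carnitine and acylcarnitine carrier of the inner membrane, had 2742, 3437 and 3144 normalised counts in controls and 3547, 3435 and 3469.6 in treated mice, and GalNAc-siNC mouse 1 was the lowest of the 6. Its log2 fold change was 0.17 ± 0.08 (SE, adjusted p = 0.17) over 6 mice. It was 0.08 (adjusted p = 0.35) without GalNAc-siNC mouse 1 and 0.24 (adjusted p = 0.033), past the threshold, without GalNAc-siNC mouse 2. Cpt2, which frees the acyl group inside the matrix, had 4737, 4399.99 and 4270.5 in controls and 4055, 4245 and 4099.5 in treated mice; the groups did not overlap, with a log2 fold change of -0.11 ± 0.06 (SE, adjusted p = 0.27), and of -0.07 without GalNAc-siNC mouse 1. Crot, the peroxisomal octanoyltransferase, differed by -3.26% (95% interval -11.3% to 5.48%). Within a mouse, the ratio of Cpt1a to Cpt2 in TPM was 0.998 ± 0.017 (SD, n = 3) in controls and 1.12 ± 0.033 (SD, n = 3) in treated mice, without overlap (exact permutation test, two-sided, p = 0.1, the smallest that 3 against 3 can give).

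**Figure D3:**
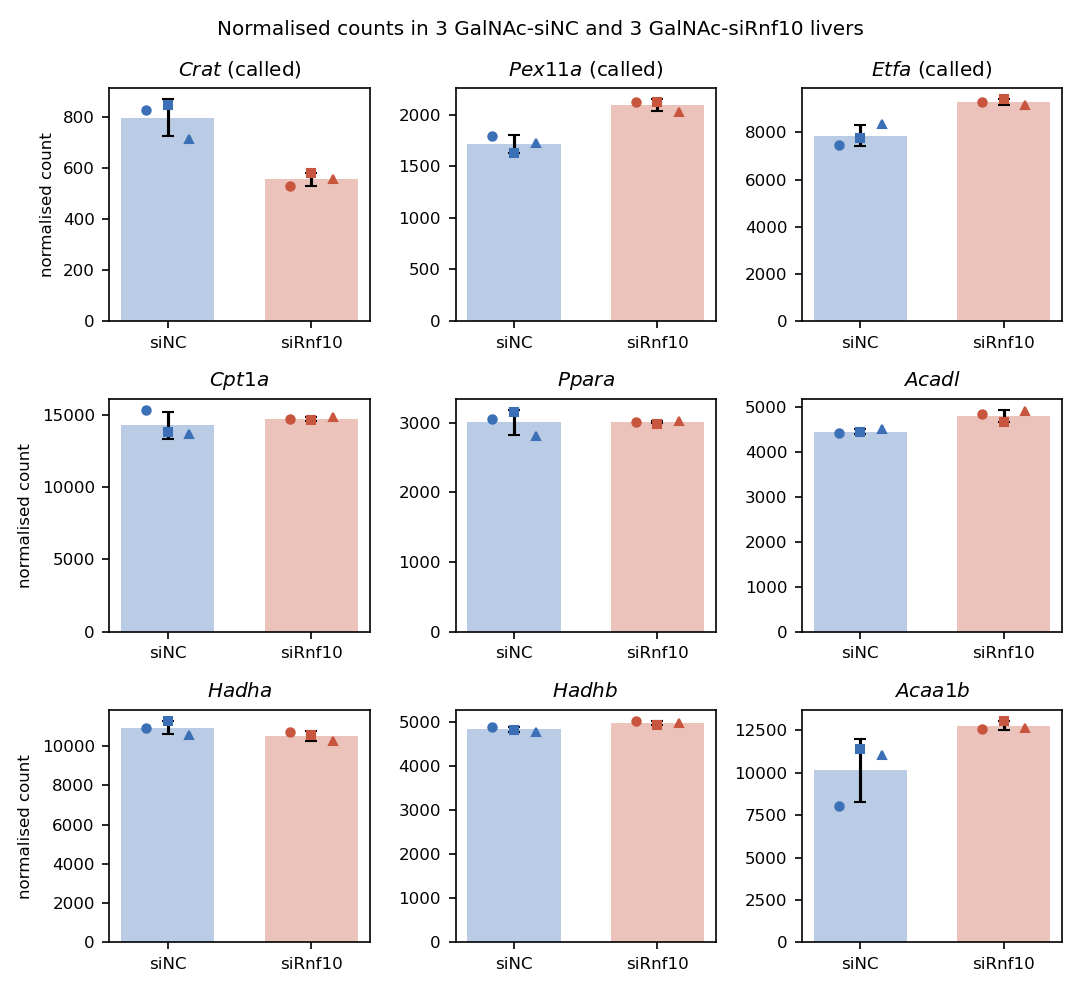
Normalised counts (y axis, from 0) of 9 genes in 3 GalNAc-siNC and 3 GalNAc-siRnf10 livers; bars are means, error bars SD with n = 3, and symbols single mice (circle mouse 1, square mouse 2, triangle mouse 3). Crat is lower and Pex11a and Etfa are higher without overlap, while the Cpt1a and Ppara values of treated mice lie inside the control range.

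The 5 acyl-CoA dehydrogenases carry out the first step of each round for chains of different length, and 0 of the 5 were called. Acadl, for long chains, had 4417, 4433 and 4509 normalised counts in controls and 4838, 4657 and 4908 in treated mice. The groups did not overlap, and the difference was small, with a log2 fold change of 0.11 ± 0.06 (SE, adjusted p = 0.25) and an interval from -1.02% to 17.4%. The log2 fold changes of Acadvl, Acadm, Acads and Acad11 were 0.02, 0.03, 0.03 and 0.01. GalNAc-siNC mouse 1 had 80.0% of the mean of the other 2 controls for Acadvl, for very long chains, and 82.7% for Acads, for short chains; without it the log2 fold changes were -0.08 and -0.06, and neither was called. The exons of Acadvl overlap those of Dvl2 on the other strand over 42.9% of their length. Dvl2 had 877 counts in all 6 mice and Acadvl 32854. Whether counting used the strand is not given in the sources used here, so the count of Acadvl is uncertain.

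Hadha and Hadhb encode the alpha and beta subunits of the mitochondrial trifunctional protein, which performs the hydration, second dehydrogenation and thiolysis of long chains. Both lie on chromosome 5, head to head, with 273 bases between the RefSeq start sites. Hadha had 10942, 11280.2 and 10586 normalised counts in controls and 10711, 10547 and 10231 in treated mice, with overlap and a log2 fold change of -0.06 ± 0.05 (SE, adjusted p = 0.53). Hadhb had 4896, 4826 and 4783 in controls and 5025, 4939.6 and 4990.1 in treated mice, without overlap and with a log2 fold change of 0.04 ± 0.06 (SE, adjusted p = 0.68). The ratio of Hadha to Hadhb in TPM was 1.71 ± 0.050 (SD, n = 3) in controls and 1.59 ± 0.036 (SD, n = 3) in treated mice; each treated mouse was below each control (exact permutation test, two-sided, p = 0.1, the smallest possible). These ratios were chosen after the values had been seen.

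Of the other later enzymes, Hadh, the dehydrogenase for medium and short chains, differed by 3.14% (95% interval -4.65% to 11.6%). Echs1, the short-chain hydratase, differed by 7.54% (-1.36% to 17.2%) and Acaa2 by 7.62% (-1.09% to 17.1%). Without GalNAc-siNC mouse 1 the log2 fold change of Echs1 went from 0.10 to 0.06 and that of Acaa2 from 0.11 to 0.05. The auxiliary enzymes let chains with double bonds enter the same rounds: Eci1 and Eci2 move the double bond and Decr1 and Decr2 reduce it. Their log2 fold changes were 0.09, 0.11, 0.02 and 0.01, and 0 of the 4 were called. For Eci1 the log2 fold change was 0.0054 without GalNAc-siNC mouse 1. Eci2 had 3832, 3862 and 4202 normalised counts in controls and 4262, 4352 and 4227 in treated mice, with the lowest treated mouse just above the highest control.

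Electron transfer flavoprotein takes electrons from all the acyl-CoA dehydrogenases, and its alpha subunit, Etfa, was higher with GalNAc-siRnf10. Etfa lies on chromosome 9 from 55454508 to 55512243. It had 7456, 7779 and 8341 normalised counts in controls and 9298, 9398 and 9165 in treated mice. The lowest treated mouse was above the highest control, with a log2 fold change of 0.24 ± 0.06 (SE, adjusted p = 0.0094) and a difference of 18.2% (95% interval 8.57% to 28.6%). Without GalNAc-siNC mouse 1 the log2 fold change was 0.20 (adjusted p = 0.0010). The call was lost without any 1 of the 3 treated mice, with adjusted p-values of 0.070, 0.073 and 0.056 at log2 fold changes of 0.23 to 0.25, and with offsets for GC content and gene length, where the log2 fold change was 0.09 (adjusted p = 0.17).

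The beta subunit, Etfb, had 173.9, 330.8 and 355.4 normalised counts in controls and 364.8, 366.8 and 366.0 in treated mice. GalNAc-siNC mouse 1 had 50.7% of the mean of the other 2 controls, and the interval of the difference was wide, from -14.3% to 91.8%, with a log2 fold change of 0.36 ± 0.25 (SE, adjusted p = 0.42). Without that mouse the log2 fold change was 0.09. The count of Etfb is uncertain, since 53.0% of its exon bases are shared, on the same strand, with the annotated gene Gm45233, which had 0 counts, and 65.2% of the 100-base stretches of its longest transcript are also found there. The TPM of Etfa was 15.9 to 16.3 times that of Etfb in treated mice, and 27.2, 14.9 and 14.9 times in the controls. Etfdh, the oxidoreductase that passes the electrons to ubiquinone, differed by -0.999% (95% interval -8.66% to 7.30%).

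Pex11a was the third gene called. Its product takes part in the elongation and division of peroxisomes, and the gene lies on chromosome 7 from 79735957 to 79743131. The control mice had 1792, 1624 and 1723 normalised counts and the treated mice 2121, 2126 and 2026. The groups did not overlap, with a log2 fold change of 0.29 ± 0.07 (SE, adjusted p = 0.0093) and a difference of 22.0% (95% interval 10.3% to 35.0%). Pex11a was called under 14 of the 16 alternative settings, with a log2 fold change of 0.32 without GalNAc-siNC mouse 1. It was not called without GalNAc-siRnf10 mouse 1 (adjusted p = 0.072) or without mouse 2 of that group (adjusted p = 0.069), with log2 fold changes of 0.28 in both.

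The values of the peroxisomal thiolases depended on GalNAc-siNC mouse 1. Acaa1b had 8006, 11386 and 11014 normalised counts in controls and 12574, 13049.8 and 12638 in treated mice, without overlap. Its log2 fold change was 0.33 ± 0.13 (SE, adjusted p = 0.17) over 6 mice and 0.19 ± 0.04 (SE, adjusted p = 0.0016) without GalNAc-siNC mouse 1. Acaa1b was called under 7 of the 16 alternative settings, among them DESeq2 on all 6 mice (adjusted p = 0.022) and no filter on low counts (adjusted p = 1.99e-05). Acaa1a had 4884, 7166 and 7138 in controls and 5816, 5767 and 5953 in treated mice, and GalNAc-siNC mouse 1 was the lowest of the 6. Its log2 fold change was -0.13 ± 0.15 (SE, adjusted p = 0.66) over 6 mice and -0.29 ± 0.05 (SE, adjusted p = 6.66e-06) without that mouse. Acaa1a was called under only that 1 of the 16 alternative settings. With offsets for GC content and gene length its log2 fold change was -0.02 (adjusted p = 0.96). Without GalNAc-siNC mouse 2 or mouse 3 it was -0.04 and -0.05. GalNAc-siNC mouse 1 was low for both genes, while their ratio in that mouse lay near that of the other 2 controls. The TPM of Acaa1a was 0.271, 0.280 and 0.288 times that of Acaa1b in controls and 0.206, 0.196 and 0.209 times in treated mice, without overlap (exact permutation test, two-sided, p = 0.1, the smallest possible). Both genes share sequence: 22.6% of the 100-base stretches of the longest Acaa1b transcript and 9.75% of those of Acaa1a occur in the other gene, so the split of reads between them is uncertain.

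The other 3 peroxisomal genes were not called. Abcd3, the peroxisomal membrane transporter of long-chain acyl-CoA, differed by 4.001% (95% interval -4.55% to 13.3%). Ehhadh and Hsd17b4, the peroxisomal bifunctional enzymes, differed by 6.39% (-2.72% to 16.3%) and 0.22% (-7.17% to 8.202%). Of the ketone body genes, Acat1, the mitochondrial thiolase that joins 2 acetyl-CoA, differed by 6.51% (-1.93% to 15.7%), and Bdh1, which interconverts acetoacetate and beta-hydroxybutyrate, by 7.68% (-1.29% to 17.5%).

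**Figure D4:**
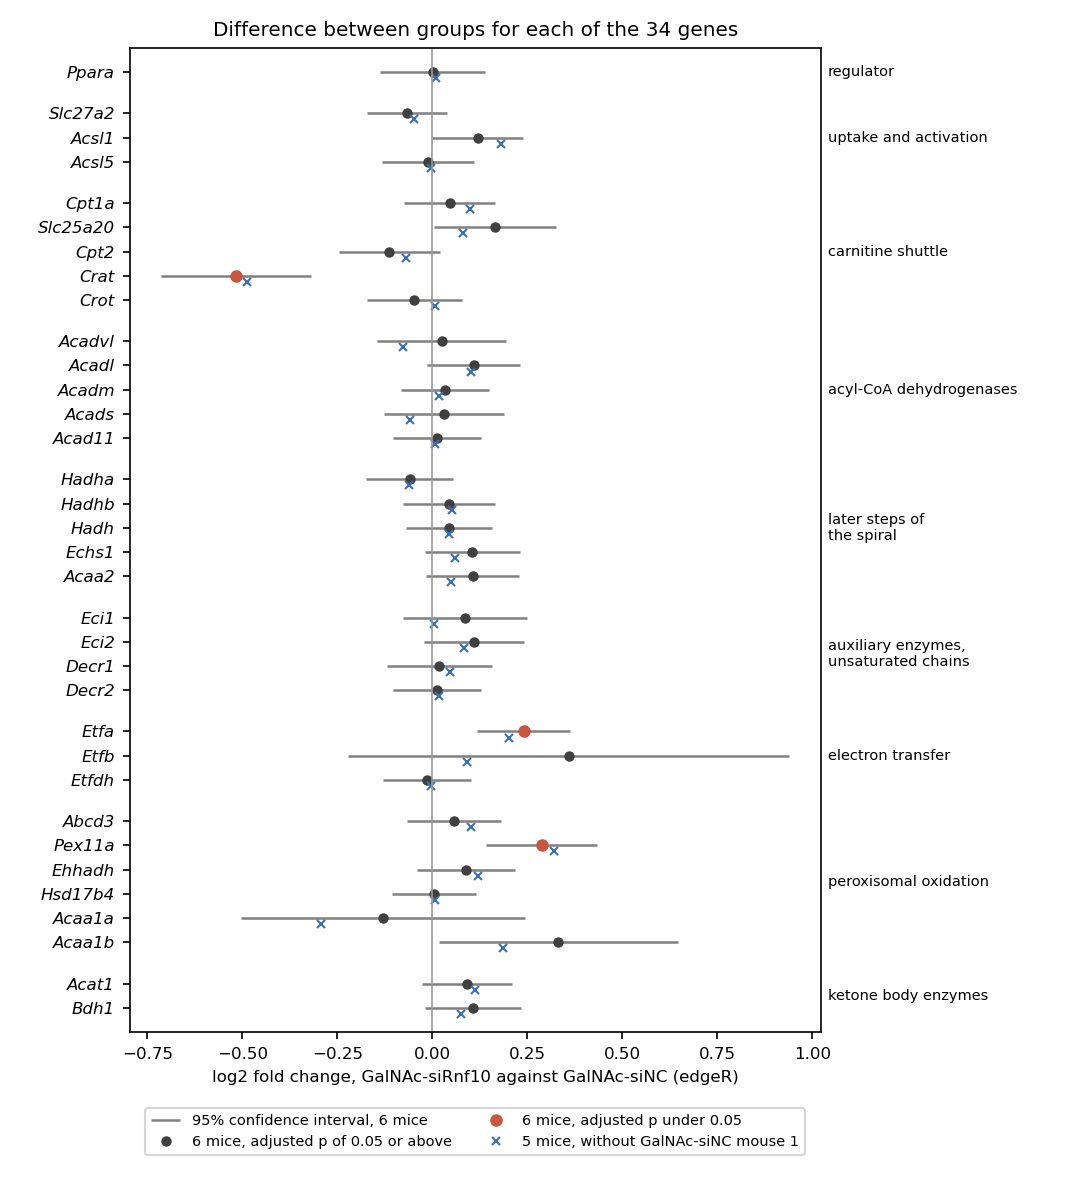
Log2 fold change of each of the 34 genes, GalNAc-siRnf10 against GalNAc-siNC (x axis, edgeR), with the 95% confidence interval; red points are the 3 genes at an adjusted p under 0.05, and blue crosses the values without GalNAc-siNC mouse 1. Most intervals include 0; the widest are those of Etfb, Acaa1a and Acaa1b, whose crosses lie farthest from their points.

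Without GalNAc-siNC mouse 1, 6 of the 34 genes were called, against 19.97% of all genes tested in those 5 mice. These were Crat, Etfa and Pex11a again, with Acsl1 and Acaa1b, both higher, and Acaa1a, lower. The median log2 fold change over the 34 genes was 0.04 there too. Leaving out a treated mouse instead left 1 or 2 calls: Crat alone without GalNAc-siRnf10 mouse 1 or mouse 2, and Crat and Pex11a without mouse 3. The share of all tested genes called in these fits was also lower, at 7.27%, 7.84% and 7.78%.

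Genes of the same pathways outside the 34 were read from a wider list, of which 85 were tested. Of these 85, 12 were called higher and 7 lower (22.4%, beside 14.0% of all tested genes). Among tested genes with a mean normalised count of at least 1000 the share called was 25.7%. Neither this list nor those that follow were split at that mark. Among the 7 tested ketone body genes, the monocarboxylate transporter genes Slc16a7 (log2 fold change 0.61, adjusted p = 7.01e-05) and Slc16a6 (-0.49, adjusted p = 0.018) were called, in opposite directions. These 2 were 28.6% of the 7, beside 14.0% of all tested genes. Without GalNAc-siNC mouse 1, 29 genes of the wider list were called, where the share of all tested genes called was 19.97%.

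Of 23 other peroxisomal oxidation genes, 5 were called (21.7%, beside 14.0% of all tested genes). Acox3, a peroxisomal acyl-CoA oxidase, was lower at -0.33 (adjusted p = 0.0092). Phyh, the hydroxylase of phytanic acid breakdown, was higher at 0.38 (adjusted p = 2.92e-05), Abcd2, a transporter related to Abcd3, at 0.97 (adjusted p = 1.68e-05) and Pecr, a peroxisomal enoyl-CoA reductase, at 0.34 (adjusted p = 0.0017).

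Of 18 other mitochondrial oxidation genes, 6 were called (33.3%, beside 14.0% of all tested genes), all higher, with log2 fold changes between 0.20 for Ivd and 0.49 for Hsd17b10. These 6, Ivd, Gcdh, Hsd17b10, Hibadh, Pcca and Mcee, are each known for a step in the breakdown of branched-chain amino acids, lysine or propionyl-CoA. Other genes of that list with such a role, among them Acad8, Acadsb and Pccb, were not called (adjusted p = 0.24, 0.30 and 0.36), and these were named after their values had been seen. Of 14 other genes of uptake, activation and carnitine, 2 were called (14.3%, beside the same 14.0%). Bbox1, which makes carnitine, was higher at 0.21 (adjusted p = 0.036) and the synthetase Acsl3 lower at -0.45 (adjusted p = 0.0033). Of 5 genes that set malonyl-CoA, the inhibitor of CPT1A, 2 were called (40.0%, beside the same 14.0%). These were the 2 acetyl-CoA carboxylases that make it, both lower. Acacb, the mitochondrial form, had 2342, 2721 and 2228 normalised counts in controls and 1581, 1550.4 and 1651 in treated mice, with a log2 fold change of -0.61 ± 0.08 (SE, adjusted p = 4.19e-05), and Acaca, the cytosolic form, was at -0.37 ± 0.07 (SE, adjusted p = 0.0011).

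Of 18 regulators of oxidation genes, 2 were called (11.1%, beside 14.0% of all tested genes). Lpin1, a phosphatidate phosphatase also known as a coactivator of PPAR-alpha, had 2091, 1737 and 1774 normalised counts in controls and 7109, 7362 and 7057 in treated mice, with a log2 fold change of 1.94 ± 0.07 (SE, adjusted p = 1.01e-11). Foxa2, a liver transcription factor, was lower at -0.53 (adjusted p = 0.0014). Of 20 PPAR-alpha targets outside the 34, 6 were called higher and 3 lower (45.0%, beside 14.0% of all tested genes), among them Angptl4 at 0.43 and Plin2 at -0.38. The log2 fold changes of these 20 genes ran from -0.53 to 2.36. Of 16 tested clock genes, 6 were called higher and 1 lower (43.8%, beside the same 14.0%), with Per1 at 1.74 and Nr1d1 at -0.68. The hour at which livers were taken is not given in the sources used here, and the part of the clock genes in these values was not tested. None of these lists was compared with the 34 genes by a test.

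**Figure D5:**
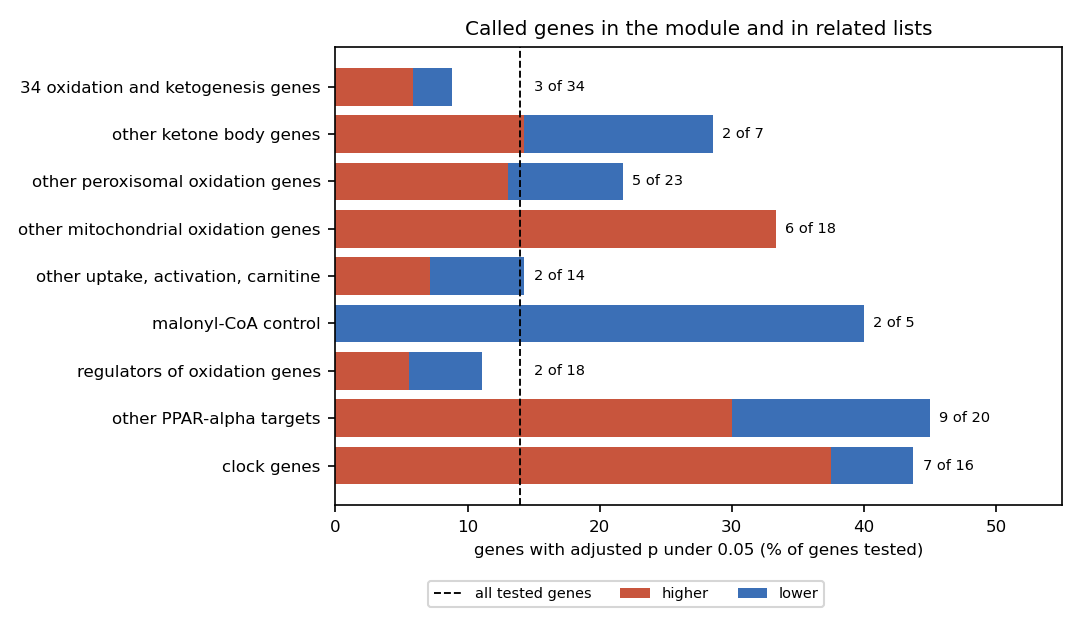
Share of tested genes with an adjusted p under 0.05 (x axis, percent) in the 34 genes and in 8 related lists; red is higher and blue lower with GalNAc-siRnf10, the numbers beside the bars are genes called of genes tested, and the dashed line is the 14.0% of all tested genes. The 34 genes, with 3 of 34, lie below the line, and the lists of malonyl-CoA control, other PPAR-alpha targets and clock genes lie at 40.0% or above.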

How the data were processed

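Total RNA from 6 livers was made into stranded, poly(A)-selected paired-end libraries. Per the methods and the submitters' processing notes, reads were mapped to GRCm38 (mm10) with HISAT2, and DESeq2 was the authors' own test. The authors deposited raw counts per gene, without normalization, together with a length in bases for each gene. The counting tool, the annotation release and the strand setting are not given in the sources used here. The treatment is GalNAc-siRnf10 in the labels and GalNAc-siRnf10-2 in the methods. Mice were grouped by their labels.

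Counts were fitted over the whole table with edgeR 4.0.16 in R 4.3.3 (filterByExpr by group, TMM, estimateDisp, robust quasi-likelihood F-test, treatment as the only covariate, Benjamini-Hochberg over 14046 genes, called at 0.05). The common dispersion was 0.00861. TPM were computed from the deposited counts and gene lengths and sum to 1000000 in each mouse. Symbols and transcripts came from GENCODE M21 (GRCm38), and gene coordinates and exon overlaps from the exons deposited with the counts. Of the 55487 genes, 54870 had identical coordinates in GENCODE M21. Of 225 symbols in the gene lists, 5 were not matched. On simulated data with 200 genes changed by a log2 value of 1 for this contrast (13799 genes), 79.5% of the 200 were recovered. Of the 168 genes called there, 9 had not been changed. Smaller changes were not simulated, and those of the 34 genes were smaller, from -0.52 to 0.36.

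The 34 genes and the other lists were chosen with earlier results of these data known, so no list was tested as a set. All 34 are described, in full those called and Cpt1a, Ppara, Acadl, Hadha and Hadhb; of other lists, genes called may be named, and results on a few genes of these lists are not reported here. Acsl1, Slc25a20, Cpt2, Eci2, Etfb, Acaa1a and Acaa1b were given by mouse after their values had been seen. P-values measure the spread between these mice. Alternatives were RLE and upper quartile scaling, 2 other filters, DESeq2 1.42.0, limma 3.58.1 voom with quality weights, a replicate block, dropping the 20 most abundant genes, spline offsets for GC content and length with and without the block, leaving out each mouse, and thresholds of 0.01 and 0.1. Same-numbered mice did not deviate together: the correlations of their deviations were -0.003, 0.023 and -0.033.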

Additional observations from a re-analysis of the deposited data

How the results depend on the processing

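The 34 genes were refitted under 16 alternative settings, 10 of analysis and 6 leaving out a mouse. Of 544 refitted values of single genes, 522 kept their side of the threshold, 7 lost a call, 15 gained one and 0 called values changed sign; 26 of the 34 genes were called under no setting. The number called was 3 or 4 under other scalings and filters, DESeq2 and thresholds of 0.01 and 0.1, and 5 with voom quality weights (Acsl1 and Acaa1b added) and with offsets for GC content and length (Etfa lost; Acsl1, Acaa1b and Bdh1 added); with the replicate block beside the offsets it was also 5. Leaving out a mouse gave 1 to 6. The share of all tested genes called moved too, from 7.27% to 19.97% when a mouse was left out, to 16.5% with voom weights and to 17.5% with the offsets. The cause was not tested. The median log2 fold change over the 34 genes stayed between 0.03 and 0.05. It moved by more than the spread between mice with upper quartile scaling (0.0343) and with the offsets without (0.0364) or with the block (0.0376). The median over all tested genes was 0.0022 in the main fit and -0.0080 with upper quartile scaling. With the offsets it was 0.0010 without the block and 0.0026 with it. The number of other pathway genes called was 11 to 29 when a mouse was left out: 29 without GalNAc-siNC mouse 1, 11 without GalNAc-siRnf10 mouse 1 and 12 without mouse 3 of that group. Rnf10 stayed between -1.27 and -1.08 on the log2 scale and was called under every setting. With the mouse number as a replicate block, 4 of the 34 genes were called (Acaa1b added, adjusted p = 0.035), 19 other pathway genes, a median of 0.04 and a log2 fold change of Rnf10 of -1.21; the mice share only a number. Mean normalised counts were under 1000 for 2 of the 34 genes, Etfb and Crat.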
